A study of Homo sapiens with 9 samples.

Results

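The effect of the siRNA called si025 on gene expression was described in VCaP cells, an established human prostate cancer line of luminal epithelial type that carries a fusion of TMPRSS2 and ERG. The 3 si025 libraries were set against the 3 control libraries, 6 of the 9 libraries of the study, the other 3 having received a second siRNA called si033. Cells of all groups were reverse transfected and collected at 72 h. Those of both siRNA groups were given 100 pmol of an siRNA against exon 1 of the long non-coding RNA IGF1R-AS1 and bear the genotype label IGF1R-AS1 knockdown, whereas the control cells are labelled WT and, per the methods, received a non-targeting siRNA. All libraries came from 1 cell line, and the labels number the replicates without saying that they were separate cultures. The study speaks of biological replicates without saying how they were kept apart, so the p-values below measure the spread between these libraries, which may be partly technical. Members were all gene symbols with a mean of 5 CPM (counts scaled to a common library size) or more over the 6 libraries, which left 10486 of the 19918 symbols listed, out of 12810 that were tested. How far the siRNA lowered IGF1R-AS1 cannot be given, because that transcript was not analysed here. In bulk RNA, fewer cells of a kind and less RNA per cell cannot be told apart.

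The 6 libraries held between 11649811 and 26760578 counts assigned to genes, and the spread between replicates was small (biological coefficient of variation 4.13%). All 10 markers of luminal prostate epithelium exceeded 5 CPM, and their summed level ranged from 6745 to 6886 CPM in control and from 7175 to 7493 CPM with si025. Of the 5 neuroendocrine markers, 3 reached 5 CPM. The sum of all 5 was 80.27 to 87.05 CPM in control and 103.9 to 112.1 CPM with si025. No basal, leukocyte or endothelial marker reached 5 CPM. Among the 6 fibroblast markers, LUM alone did. The fibroblast sum was 16.8 to 18.9 CPM in control and 37.3 to 44.4 CPM with si025, with COL1A2 at 0 in all 6 libraries. KRT5, CD3E and CDH5 were likewise at 0.

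Knockdown by siRNA works through a short duplex of which one strand is loaded into an Argonaute protein and guides it to complementary RNA. Bases 2 to 8 of the loaded strand, the seed, can also pair with the 3′ UTR of other mRNAs and lower their level, as a microRNA does. The study listed 1 control siRNA and 2 siRNAs against IGF1R-AS1, and which of these is si025 is not stated in the sources used here. The listed strands are shown because they are the agents compared, with the seed in capitals.
siRNA negative control: uAGCGACUaaacacaucaa
IGF1R-AS1-siRNA-1#: aGAAAGCAcugaagaccuauu
IGF1R-AS1-siRNA-2#: cCGUAUUGcucaguggaaauu
The strands that pair with them, whose seeds lie at the other end, are as follows.
pair of the negative control: uUGAUGUGuuuagucgcua
pair of IGF1R-AS1-siRNA-1#: uAGGUCUUcagugcuuucu
pair of IGF1R-AS1-siRNA-2#: uUUCCACUgagcaauacgg
The first 19 bases of siRNA-1 occurred once in hg38, at chr15:98843733-98843751 on the minus strand, and those of siRNA-2 once, at chr15:98843694-98843712 on the minus strand. Both places lie within IGF1R (chr15:98648539-98964530, plus strand) and overlap none of the exons annotated in GENCODE 44. The study places IGF1R-AS1 on the minus strand. The first 19 bases of both listed strands thus have its sequence, and the paired strands are complementary to it. Which strand was loaded was not tested. The 19 bases of the negative control occurred at 0 places. IGF1R itself, the receptor gene on the opposite strand, was at 420, 417 and 420 CPM in control and at 466, 406 and 419 CPM with si025, so that the groups overlapped (log2 fold change 0.04 ± 0.05 (SE), edgeR adjusted p = 0.51). With offsets for gene length and GC content it was called lower (-0.08, adjusted p = 0.018).

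Of all 12810 genes tested, 7908 (61.7%) were called at an edgeR adjusted p under 0.05. With si025, 3371 genes (32.1% of those at 5 CPM or more) were called higher and 3395 (32.4%) lower, together 64.5%. The median log2 fold change over all 10486 genes was -0.01. Changes of at least 2-fold were unevenly split, with 289 genes (2.76%) higher and 84 (0.801%) lower. The 3 libraries of each group did not overlap in 68.5% of genes. With so many genes called, the count for a gene group was read against 32.1% and 32.4%, and each group is described by its counts and median without a further test. Of 90 gene lists, 81 had 10 or more members at 5 CPM, and 45 of these had more members called higher than lower whereas 34 had more called lower.

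**Figure D1:**
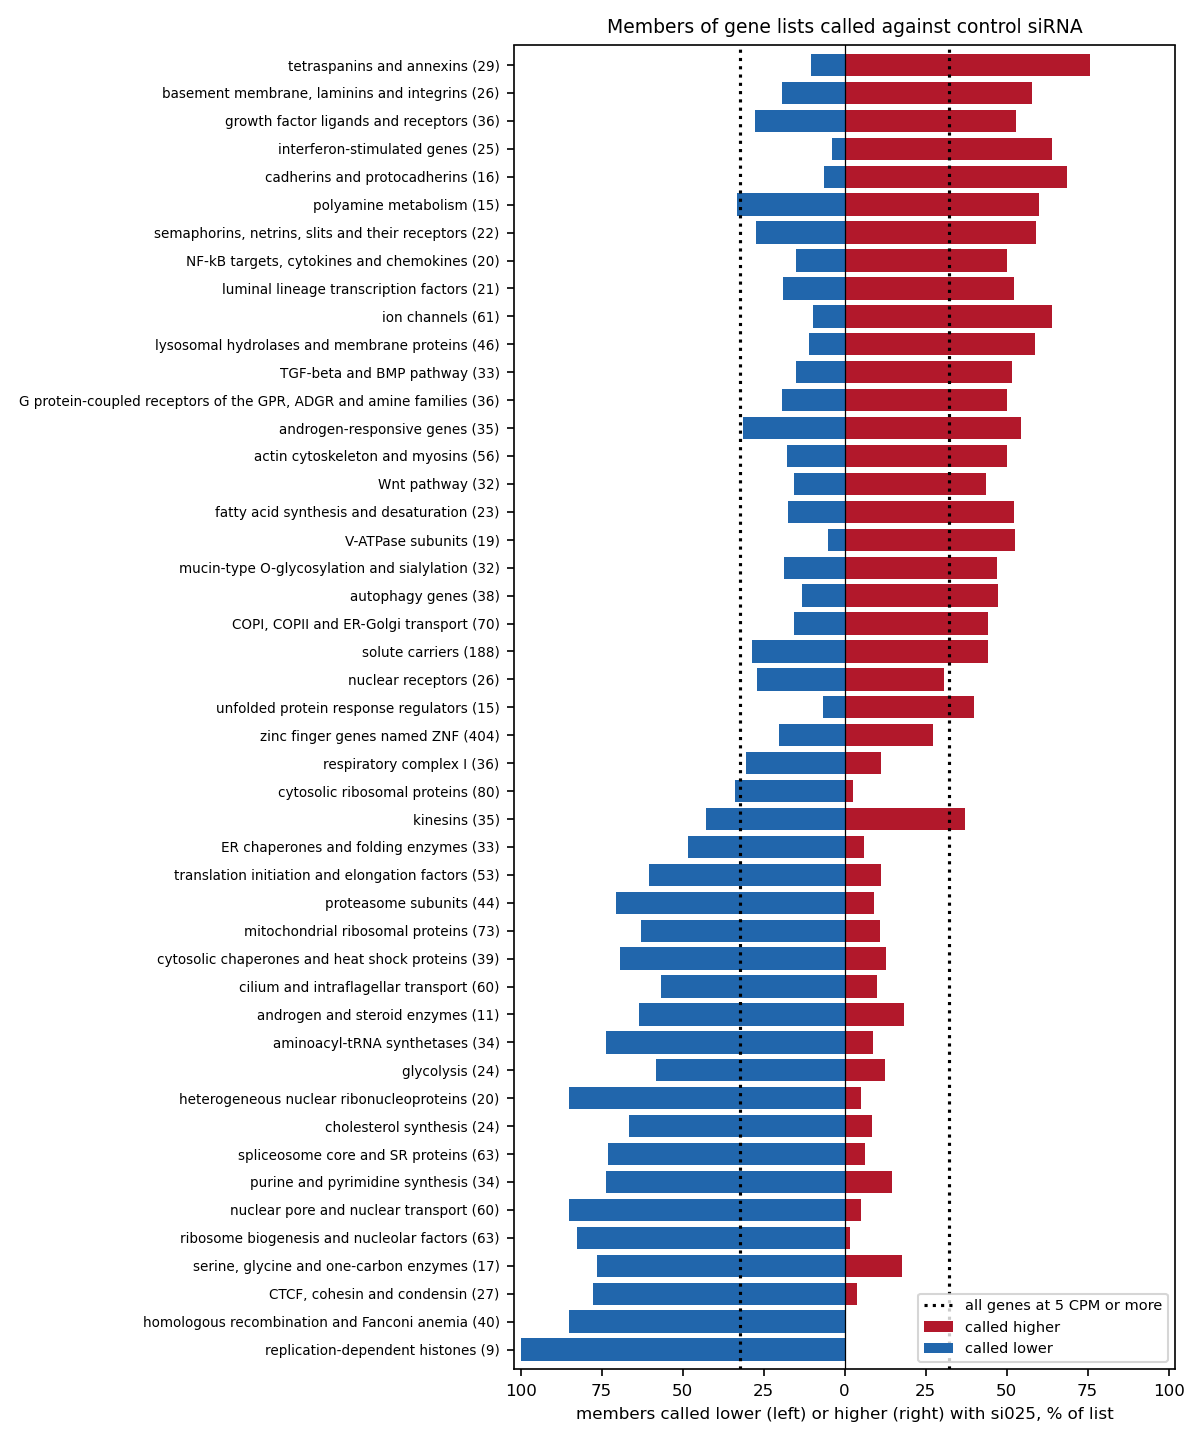
Bars give the percentage of each list's members (number at 5 CPM or more in brackets) called higher (red, right) or lower (blue, left) with si025 than with control siRNA, for the 47 lists described, ordered by median log2 fold change; dotted lines mark all genes at 5 CPM or more. Histones, recombination genes and nuclear pore genes sit at the lower end and tetraspanins and annexins at the upper end.

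Genes were ranked by size only among those called whose si025 and control libraries did not overlap. This left out U2AF1 and YWHAE, whose groups overlapped and whose values are given below. The genes that rose most were at low counts in control. CREB3L1 (chr11:46277638-46321422), a membrane-bound transcription factor of the ER and Golgi that is cleaved to enter the nucleus, was at 2.44, 1.67 and 2.16 CPM in control and at 23.4, 21.2 and 22.7 CPM with si025. All 3 si025 libraries lay far above all controls, a 10.7-fold rise (log2 fold change 3.42 ± 0.12, edgeR adjusted p = 4.1e-16). VTN (chr17:28367277-28370352), which encodes the adhesive plasma glycoprotein vitronectin, was at 2.01, 3.04 and 2.82 CPM in control and at 25.5, 25 and 25.2 CPM with si025. It rose 9.37-fold (log2 fold change 3.23 ± 0.13, edgeR adjusted p = 1.2e-15), without overlap. UBASH3B, a phosphatase that acts on tyrosine kinases, was at 1.22, 1.38 and 0.966 CPM in control and at 11.2, 9.38 and 11 CPM with si025. Its rise was 9.13-fold (edgeR adjusted p = 1.1e-12). ABCC3, an efflux pump for organic anions, rose 7.06-fold from 2.36, 2.68 and 1.62 CPM to 15.1, 14.6 and 14.9 CPM.

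EGFR (chr7:55019032-55207338), the receptor for epidermal growth factor, was at 5.06, 4.13 and 4.25 CPM in control and at 21.5, 15.6 and 19.4 CPM with si025. The groups were apart by a wide margin (4.22-fold, log2 fold change 2.08 ± 0.13, edgeR adjusted p = 2.5e-12). PTGS1, the constitutive cyclooxygenase of prostaglandin synthesis, rose 4.81-fold to between 13.2 and 14.9 CPM. Also among the 15 largest rises so ranked were the intermediate filament gene PRPH (log2 fold change 2.80) and the synaptic adhesion gene CLSTN2 (2.52). The thyroid hormone-binding protein gene CRYM (2.26) and the diacylglycerol kinase gene DGKA (2.25) were too. The others were SLC2A10, a glucose transporter of the GLUT family (2.24), QPCT, which cyclises N-terminal glutamine (2.20), the matrix proteoglycan FMOD (2.19), FAM69A (2.1) and the lysosomal ubiquitin ligase RNF152 (2.04). Each of the 15 was below 6 CPM in every control library, and 14 had a control mean under the floor of 5 CPM, so they entered only through the si025 libraries.

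The largest fall was that of RPL9 (chr4:39454124-39458948), a protein of the large ribosomal subunit. It was at 368, 371 and 399 CPM in control and at 60.9, 69.4 and 56.8 CPM with si025. All si025 libraries were below all controls, a 6.09-fold fall (log2 fold change -2.61 ± 0.07, edgeR adjusted p = 3.0e-18). The next lowest ribosomal protein genes were RPS2 (-0.59) and RPS3 (-0.52). RPL9 has processed pseudogenes, and how reads shared with them were counted is not known.

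PPFIA1, a liprin that organises focal adhesions, was at 147, 147 and 149 CPM in control and at 41.9, 44.4 and 41.9 CPM with si025 (log2 fold change -1.79 ± 0.05, edgeR adjusted p = 4.4e-18). ATPAF1, an assembly factor of mitochondrial ATP synthase, was at 123, 128 and 130 CPM in control and at 40.7, 43.2 and 40.7 CPM with si025, a 3.07-fold fall (edgeR adjusted p = 3.3e-17). Of the 15 largest falls, 14 are described, and these also included FBN1, the microfibril protein fibrillin-1 (-1.89), the kappa opioid receptor gene OPRK1 (-1.73), the replication factor gene WDHD1 (-1.73) and the abundant chromatin-associated protein gene PTMA (-1.57), which fell from between 1216 and 1312 CPM to between 392 and 457 CPM. ADAM7 (-1.54), KLHL2 (-1.50), CDCA4 (-1.48), MEST (-1.45) and 3 histone genes described with their list below completed them. Groups without overlap were a condition of the choice for all of these genes. Of the 14 falls, 3 had a si025 mean under the floor of 5 CPM and so entered only through the control libraries.

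**Figure D2:**
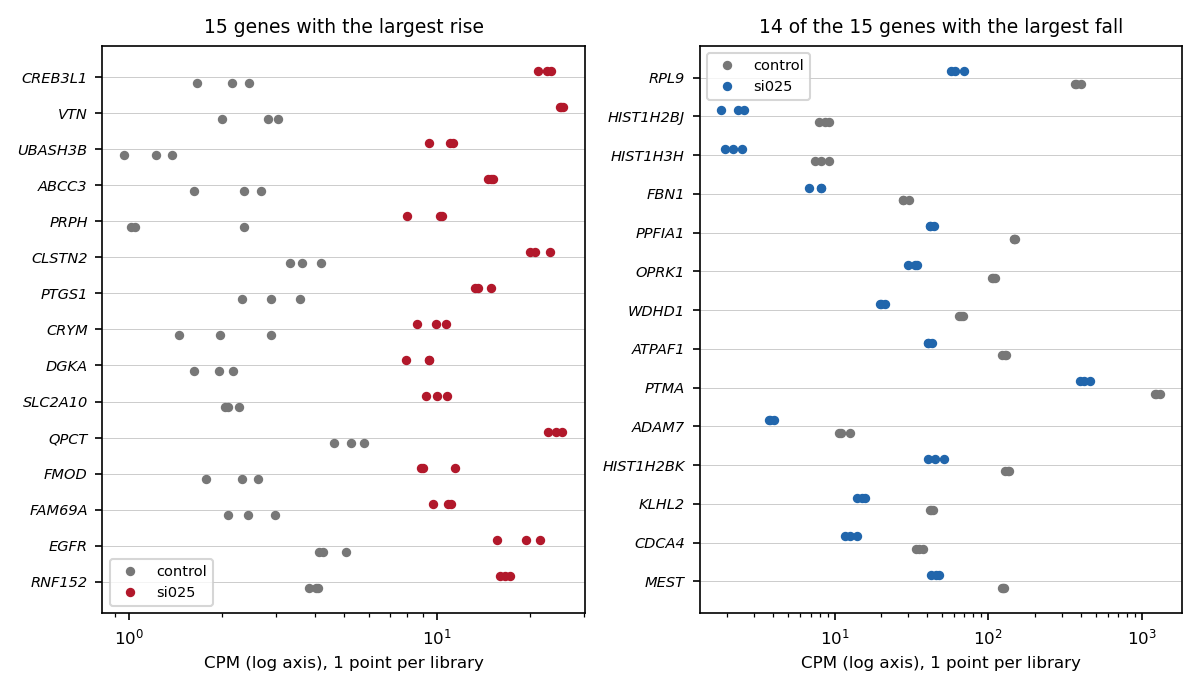
CPM on a log axis in each of the 3 control (grey) and 3 si025 libraries (red or blue) for the 15 genes with the largest rise (left) and 14 of the 15 with the largest fall (right). The genes were chosen among those called without overlap between the groups. RPL9 drops from at least 368 CPM to at most 69.4 CPM.

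The 3′ UTRs of the genes that fell were searched for the 7-base complement of each siRNA seed, on the transcript strand only, using the canonical GENCODE 44 transcript of the 10004 genes at 5 CPM or more that had one. For siRNA-1 the sites were TGCTTTC for the listed strand, in 2167 genes (21.7%), and AAGACCT for the strand paired with it, in 1166 genes (11.7%). One or both occurred in 2888 genes (28.9%). Among the 77 of these genes that were called at least 2-fold lower, 39 (50.6%) held one, compared with 81 (29.6%) of the 274 called at least 2-fold higher. Of the 11 described falls with a UTR sequence, 9 held one. AAGACCT was present in RPL9, ATPAF1 and MEST, and TGCTTTC in FBN1, PPFIA1, OPRK1, ADAM7, KLHL2 and CDCA4. Neither was found in WDHD1 or PTMA. PPFIA1 and OPRK1 also held AGTGGAA, the site of the strand paired with siRNA-2, which occurred in 2 of the 11. The site windows of 6 genes are shown in DNA letters, 19 bases each, with the seed site in capitals and the base that would face the first base of the siRNA strand at the end.
RPL9 first site: agatgacacttAAGACCTa
RPL9 second site: tgatgcaataaAAGACCTa
ATPAF1: taataagcttgAAGACCTg
MEST: acaaactctgaAAGACCTa
PPFIA1: gtattatttatTGCTTTCt
KLHL2: tagacaacagtTGCTTTCa
FBN1: ttggacaaagaTGCTTTCt
The RPL9 windows lie at chr4:39454181-39454199 and chr4:39454147-39454165, both on the minus strand, and are the 2 sites within a UTR of 112 bases. The first matched the full complement of the paired strand of siRNA-1 at 15 of 19 positions and the second at 11. The windows of ATPAF1 (chr1:46635376-46635394, minus), MEST (chr7:130506097-130506115, plus), PPFIA1 (chr11:70384344-70384362, plus), KLHL2 (chr4:165322320-165322338, plus) and FBN1 (chr15:48409146-48409164, minus) matched it, or the complement of the listed strand, at 10 to 12 positions. KLHL2 and FBN1 each held another TGCTTTC, in windows that matched at 9 and 8 positions respectively and are not shown. Each of these counts includes the 7 bases of the site by which the window was found. Matches at the other bases were not set against a random expectation. A match is a description of letters and not evidence of binding.

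Over all genes, the differences were small for the siRNA-1 sites. The median log2 fold change was -0.04 for the genes with TGCTTTC and 0.00 for those without it. The coefficient for the site in a linear fit with UTR length and GC content was -0.07 for TGCTTTC and -0.06 for AAGACCT. In the contrast of si025 with si033, which uses no control library, the same coefficients were -0.08 and -0.07. For siRNA-2 the coefficients were 0.08 for CAATACG, in 148 genes, and -0.01 for AGTGGAA, in 1664 genes (16.6%). AGTGGAA was nevertheless held by 19 of the 77 genes called at least 2-fold lower (24.7%) and by 48 of the 274 called at least 2-fold higher (17.5%).

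Genes with CACATCA, the site of the strand paired with the negative control, moved the other way. Of the 1176 genes (11.8%) that held it, 49.0% were called higher and 22.2% lower, against 30.1% and 33.8% of the genes without it. Their median was 0.14 compared with -0.02, and the difference was seen in short, middle and long UTRs alike (medians 0.26, 0.16 and 0.13 with the site and -0.03, -0.02 and -0.01 without). The coefficient was 0.17 for si025 against control and 0.17 for si033 against the same control libraries, whereas it was 0.01 for si025 against si033. The contrasts of si025 and si033 with control share the control libraries. CACATCA was held by 66 of the 274 genes called at least 2-fold higher (24.1%) and by 4 of the 77 called at least 2-fold lower (5.2%). It was present in 4 of the 14 largest rises with a UTR sequence and in 0 of the 11 described falls with one. The part of any seed in these levels was not tested.

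**Figure D3:**
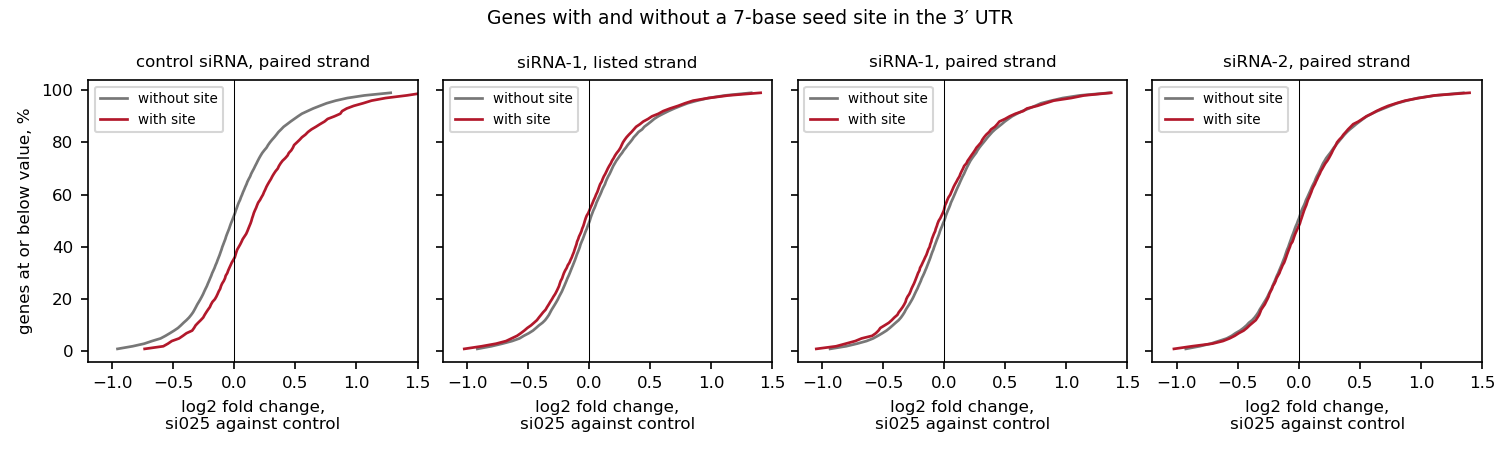
Curves give the percentage of genes at or below each log2 fold change (si025 against control) among genes with a 7-base seed site in the 3′ UTR (red) and without it (grey), between percentiles 1 and 99. The curve of the control siRNA's paired strand lies to the right (median 0.14 against -0.02), those of siRNA-1 lie slightly to the left, and that of siRNA-2's paired strand overlies the genes without the site.

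Replication-dependent histone genes, which supply chromatin during DNA synthesis, had 9 of 71 members, among them the mRNA-binding factor SLBP, at 5 CPM or more. All 9 were called lower (median log2 fold change -1.33). HIST1H2BK was at 129, 136 and 134 CPM in control and at 40.6, 51.3 and 45.2 CPM with si025 (log2 fold change -1.53 ± 0.06, edgeR adjusted p = 1.5e-15). HIST1H2BJ (-1.94) and HIST1H3H (-1.92) were lower still but below 10 CPM. Histone genes are near-identical copies, so the split of reads among them is uncertain. At a floor of 1 CPM, 22 members were called lower and 0 higher, and at 10 CPM, 3 were.

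Homologous recombination and the Fanconi anemia pathway repair double-strand breaks and crosslinks. Of 40 members, 34 were called lower and 0 higher (median -0.46). BRCA1 was at 144, 151 and 148 CPM in control and at 72.4, 65.9 and 69.5 CPM with si025 (log2 fold change -1.09 ± 0.05, edgeR adjusted p = 8.7e-15). The resection nuclease gene EXO1 (-1.22) and BRCA2 (-1.11) fell to a similar extent. CTCF, cohesin and condensin fold chromosomes into loops, and 21 of their 27 genes were called lower against 1 higher (median -0.39). CTCF was at 126, 132 and 123 CPM in control and at 97.5, 93.4 and 98.7 CPM with si025, a modest fall without overlap (log2 fold change -0.39 ± 0.05, edgeR adjusted p = 2.0e-07). The cohesin acetyltransferase ESCO2 (-1.05), the condensin subunit NCAPD2 (-0.87) and the cohesin subunit SMC3 (-0.76) fell most, and HDAC8, which deacetylates SMC3, was the member that rose (0.34).

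Nuclear pore and nuclear transport genes gave 51 of 60 lower and 3 higher (median -0.32). SEH1L, a scaffold nucleoporin, fell from 96.0, 92.9 and 100 CPM to 46.0, 44.7 and 48.1 CPM, and RCC1, the exchange factor that charges the GTPase Ran, by 0.89 on the log2 scale. Spliceosome genes gave 46 of 63 lower and 4 higher (median -0.29), led by SNRPD1 (-0.69), the helicase gene DHX38 (-0.62) and SF3B1 (-0.61). SRSF12 (0.99) and LSM1 (0.88) rose. The highest value of the list, U2AF1, rested on 1 library: it was at 1.09, 1.44 and 36.3 CPM with si025 and between 0.927 and 1.52 CPM in control. Without si025 replicate 3 its log2 fold change went from 3.60 (edgeR adjusted p = 0.00089) to 0.17 (adjusted p = 0.66). Of the heterogeneous nuclear ribonucleoprotein genes, which package pre-mRNA, 17 of 20 were lower and 1 higher (median -0.26), with HNRNPD the lowest (-0.63).

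Ribosome biogenesis and nucleolar factors gave 52 of 63 lower and 1 higher (median -0.32). Nucleolin, encoded by NCL, was at 1470, 1443 and 1514 CPM in control and at 968, 1024 and 1002 CPM with si025 (log2 fold change -0.56 ± 0.04, edgeR adjusted p = 1.1e-11). The RNA polymerase I subunit gene POLR1E (-0.88), TCOF1, whose product treacle promotes rDNA transcription (-0.88), and NOP56, a core protein of box C/D particles (-0.74), fell most, and NOP58 rose by little (0.13). Mitochondrial ribosomal protein genes followed, with 46 of 73 lower and 8 higher (median -0.20). MRPS2 (-0.59) and MRPL37 (-0.58) were the lowest, and MRPL36 went the opposite way (1.17).

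Cytosolic ribosomal protein genes did not show a shift of this size. Of 80 at 5 CPM or more, 27 (33.8%) were called lower, close to the share of all genes, and 2 higher (median -0.07). Those called higher were 2.5% of the list, against 32.1% of all genes. With offsets for gene length and GC content the direction turned, to 20 lower and 37 higher (median 0.04). Without si025 replicate 2, 43 were called lower. RPL9 was the 1 member called at least 2-fold lower, so a fall of that size was not shared by its list. Respiratory complex I likewise had 11 of 36 lower and 4 higher, which became 12 and 16 with those offsets.

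Genes that load, start and extend translation fell more often. Of 34 aminoacyl-tRNA synthetase genes, 25 were lower and 3 higher (median -0.22), with the mitochondrial alanyl enzyme AARS2 lowest (-1.06), from 104, 103 and 101 CPM to 48.1, 49.8 and 49.2 CPM. Of 53 translation factor genes, 32 were lower and 6 higher (median -0.18). EIF4E, the cap-binding protein, was at 80.2, 81.5 and 93.0 CPM in control and at 74.1, 82.9 and 83.7 CPM with si025, and the groups overlapped (edgeR adjusted p = 0.23). Proteasome subunits had 31 of 44 lower and 4 higher (median -0.19), led by PSMD1 (-0.55), which became 21 lower and 6 higher with a median of -0.08 with the length and GC offsets. Cytosolic chaperones had 27 of 39 lower and 5 higher (median -0.20), led by HSPD1, a mitochondrial chaperonin (-0.59), and the chaperonin subunit gene CCT2 (-0.44). The small co-chaperone gene DNAJB2 (0.75) rose, and HSF1, the regulator of the heat shock response, did not pass the test (-0.05, edgeR adjusted p = 0.46) but was called lower with those offsets (-0.15, adjusted p = 0.0037).

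**Figure D4:**
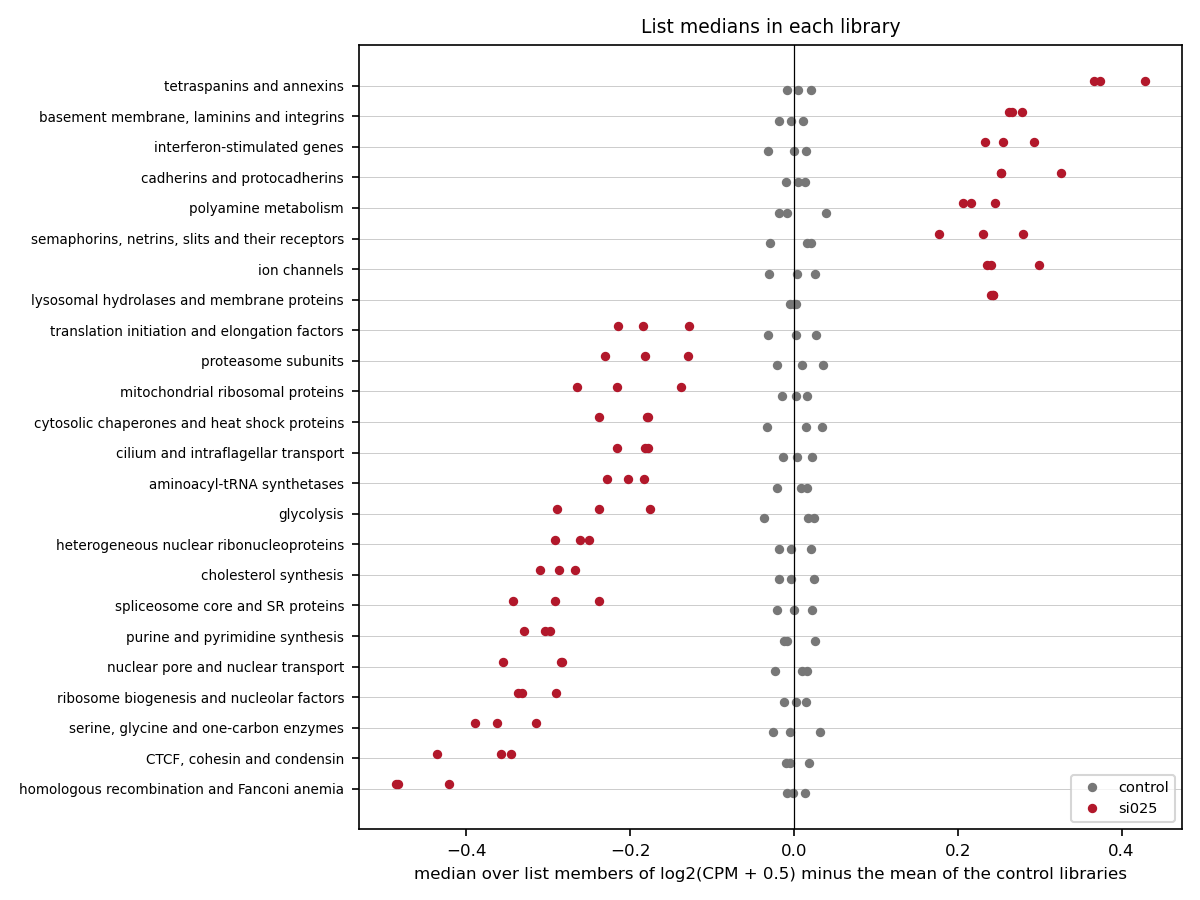
Each point is 1 library and gives the median over a list's members of log2(CPM + 0.5) minus the mean of the control libraries, for the lists with at least 15 members at 5 CPM of which at least 55% were called 1 way (grey, control; red, si025). In each list the 3 si025 libraries lie on 1 side of the 3 control libraries, from about -0.49 for homologous recombination to 0.43 for tetraspanins and annexins. The lists were chosen by calls made in these same libraries, so that separation was largely set by the choice.

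In metabolism, falls were found in pathways that make nucleotides, one-carbon units, sterols and lactate. Purine and pyrimidine synthesis had 25 of 34 genes lower and 5 higher (median -0.32). RRM2, the regulated subunit of ribonucleotide reductase, was at 311, 334 and 325 CPM in control and at 150, 145 and 145 CPM with si025 (log2 fold change -1.15 ± 0.05, edgeR adjusted p = 1.6e-15). The purine enzyme genes PAICS (-1.04) and GART (-0.90) also fell, and ADSSL1 rose (1.05). Serine, glycine and one-carbon enzymes had 13 of 17 lower and 3 higher (median -0.36). PSAT1, of serine synthesis, fell from 95.2, 98.6 and 98.3 CPM to 43.8, 44.1 and 42.5 CPM (edgeR adjusted p = 4.2e-15). PHGDH, the first enzyme of serine synthesis, was called lower by a small amount, and its groups overlapped (109, 118 and 105 CPM in control, 93.1, 107 and 96.5 CPM with si025).

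Cholesterol synthesis genes had 16 of 24 lower and 2 higher (median -0.29). HMGCS1 (chr5:43287470-43313512), which makes HMG-CoA, was at 563, 587 and 571 CPM in control and at 254, 249 and 264 CPM with si025. The groups were well apart (log2 fold change -1.17 ± 0.04, edgeR adjusted p = 4.0e-16). FDPS, which makes farnesyl diphosphate (-0.82), and SREBF2, the transcription factor that drives the pathway (-0.75), fell by less. TM7SF2, a sterol reductase, rose from between 238 and 250 CPM to between 398 and 426 CPM.

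Fatty acid synthesis and desaturation genes moved the other way, with 12 of 23 higher and 4 lower (median 0.13). The elongases ELOVL7 (0.82) and ELOVL4 (0.71) and the acyl-CoA ligase ACSL4 (0.61) rose most, whereas ELOVL2 fell (-0.38). FASN, the fatty acid synthase, was lower by 0.13 on the log2 scale with overlapping groups, and SREBF1 did not pass the test (0.08, edgeR adjusted p = 0.14). With length and GC offsets SREBF1 turned to -0.08 and was called lower (adjusted p = 0.017). Glycolysis had 14 of 24 lower and 3 higher (median -0.24). LDHA, which reduces pyruvate to lactate, was at 631, 666 and 698 CPM in control and at 425, 463 and 440 CPM with si025 (log2 fold change -0.59 ± 0.05, edgeR adjusted p = 1.1e-10). PDK1 (-0.67), LDHB (-0.53) and PKM (-0.41) fell as well, and ENO2, the neuronal enolase, rose (0.83).

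Polyamine genes changed in both directions, 9 of 15 higher and 5 lower (median 0.25), and the enzymes of the main route differed. ODC1, the rate-limiting enzyme, was at 442, 441 and 447 CPM in control and at 190, 204 and 196 CPM with si025 (log2 fold change -1.17 ± 0.04, edgeR adjusted p = 5.6e-16). AMD1, which supplies the aminopropyl donor, was at 893, 887 and 932 CPM in control and at 1695, 1678 and 1775 CPM with si025 (0.92 ± 0.04, adjusted p = 1.9e-14). SRM, spermidine synthase, fell (-0.50), while AGMAT (1.23) and the arginase gene ARG2 (0.79) rose.

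In the secretory pathway, folding and transport parted. ER chaperone and folding genes had 16 of 33 lower and 2 higher (median -0.14). HSPA5, the ER chaperone BiP, was at 1697, 1743 and 1735 CPM in control and at 1008, 1093 and 1049 CPM with si025 (log2 fold change -0.72 ± 0.04, edgeR adjusted p = 2.7e-13). MANF (-0.92), HSP90B1 (-0.78) and PDIA4 (-0.78) fell alongside. Regulators of the unfolded protein response had 6 of 15 higher and 1 lower (median 0.04). The 4 members of the CREB3 family on that list all rose, CREB3L1 by 3.42, CREB3L4 by 0.86, CREB3L2 by 0.67 and CREB3 by 0.52 on the log2 scale. ERN1, the ER sensor IRE1, rose from 20.2, 19.6 and 20.9 CPM to 35.7, 36.1 and 36.3 CPM. XBP1, the factor that IRE1 activates by splicing, rose slightly (0.18), and ATF6 (0.04) and ATF4 (-0.06) did not pass the test.

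Vesicle transport between ER and Golgi (COPI and COPII) had 31 of 70 genes higher and 11 lower (median 0.10), with LMAN1L (1.72), ERGIC1 (0.76) and YIPF1 (0.72) the highest. The list for mucin-type glycosylation and sialylation had 15 of 32 higher and 6 lower (median 0.11). It was led by the sialyltransferase gene ST6GALNAC5 (1.46) and by FUT8 (0.90), a core fucosyltransferase of N-glycans and not of mucin-type chains. Lysosomal hydrolases and membrane proteins had 27 of 46 higher and 5 lower (median 0.20). TFEB, the transcription factor of lysosomal genes, was at 10.2, 8.99 and 8.03 CPM in control and at 17.6, 18.8 and 17.7 CPM with si025 (log2 fold change 1.02 ± 0.10, edgeR adjusted p = 6.4e-09). LAMP2 rose as well (0.92), but LAMP1 fell (-0.22), and the protease gene LGMN was the strongest exception, falling from 26, 22.8 and 22.1 CPM to 12, 11 and 9.68 CPM. The proton pump that acidifies lysosomes had 10 of 19 V-ATPase genes higher and 1, ATP6V1B2, lower (-0.55). Autophagy genes had 18 of 38 higher and 5 lower (median 0.11), with the receptor gene OPTN (1.23) and GABARAP (0.89) highest and GABARAPL2 lowest (-0.54).

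Genes of the luminal prostate lineage rose more often than they fell, 11 of 21 transcription factors being higher and 4 lower (median 0.22). The highest was CREB3L1 (3.42), which is also counted above among the regulators of the unfolded protein response. SPDEF (chr6:34537802-34556333), an ETS factor of secretory epithelium, was at 110, 119 and 106 CPM in control and at 256, 265 and 247 CPM with si025 (log2 fold change 1.2 ± 0.05, edgeR adjusted p = 5.8e-15). HOXB13 (0.53) and FOXA1 (0.23) rose, and SOX9 (-0.55) and ONECUT2 (-0.45) fell. ERG, driven by the fusion in these cells, rose from 310, 300 and 323 CPM to 452, 452 and 453 CPM.

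Androgen-responsive genes had 19 of 35 higher and 11 lower (median 0.17). KLK3 (chr19:50854915-50860764), which encodes prostate-specific antigen, was at 11.9, 14.1 and 14.1 CPM in control and at 42.1, 37.6 and 36.9 CPM with si025 (log2 fold change 1.51 ± 0.08, edgeR adjusted p = 2.1e-13). ACPP, prostatic acid phosphatase, was at 1689, 1746 and 1854 CPM in control and at 4059, 3914 and 4004 CPM with si025 (1.18 ± 0.04, adjusted p = 4.5e-16). KLK2 rose from between 1894 and 1981 CPM to between 3370 and 3690 CPM, whereas FKBP5, a canonical androgen target, was at 194, 206 and 194 CPM in control and at 207, 194 and 212 CPM with si025 (edgeR adjusted p = 0.42). ADAM7 (-1.54), ZBTB10 (-0.97) and BMPR1B (-0.79) fell. Steroid enzymes had 7 of 11 lower and 2 higher (median -0.21), with the androgen-glucuronidating enzymes UGT2B11 (-1.33) and UGT2B17 (-1.25) lowest. These paralogs are alike in sequence, so their counts are uncertain.

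At the cell surface, rises outnumbered falls in each list described. Tetraspanins and annexins, which organise membranes, had 22 of 29 higher and 3 lower (median 0.40). ANXA2 was at 22.0, 25.2 and 23.4 CPM in control and at 67.8, 68.2 and 78.5 CPM with si025 (log2 fold change 1.61 ± 0.07, edgeR adjusted p = 3.8e-15), and CD82, a tetraspanin that curbs cell motility, rose 2.91-fold. Basement membrane and integrin genes had 15 of 26 higher and 5 lower (median 0.29). ITGA3 (1.41) and the collagen IV genes COL4A4 (1.59) and COL4A3 (1.24) rose, and ITGB8 (-0.93) fell. Cadherins and protocadherins had 11 of 16 higher and 1 lower (median 0.27). CDH3, P-cadherin, was at 2.88, 4.64 and 4.17 CPM in control and at 15.1, 16.6 and 16.4 CPM with si025 (2.01 ± 0.12, adjusted p = 1.7e-12), and CDH1, E-cadherin, rose by 0.26 on the log2 scale. CDH3 was below 5 CPM in every control library, so it passed the floor only through the si025 libraries.

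Ion channel genes had 39 of 61 higher and 6 lower (median 0.22). KCNK3, a leak potassium channel, was at 53.7, 51.5 and 49.1 CPM in control and at 142, 132 and 138 CPM with si025 (log2 fold change 1.43 ± 0.06, edgeR adjusted p = 1.2e-15). The calcium channel subunit genes CACNA2D2 (1.58) and CACNG4 (1.51) rose, and GRIN3A, of the NMDA receptor, fell (-0.61). G protein-coupled receptors had 18 of 36 higher and 7 lower (median 0.18), with the muscarinic receptor gene CHRM1 (1.93) and the dopamine receptor gene DRD2 (1.92) highest and, after OPRK1, the purine receptor gene P2RY1 lowest (-1.13). Semaphorins, netrins, slits and their receptors had 13 of 22 higher and 6 lower (median 0.24), among them PLXNA2 (1.19) and PLXNA3 (1.07).

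Growth factor ligands and receptors had 19 of 36 higher and 10 lower (median 0.28). Beside EGFR, its ligand gene TGFA rose, from 6.11, 4.13 and 5.33 CPM to 16.1, 16.9 and 15.2 CPM (log2 fold change 1.63 ± 0.12, edgeR adjusted p = 4.8e-11), and the related receptor genes ERBB2 (0.68) and ERBB3 (0.66) did so by less. IGFBP3, which binds insulin-like growth factors, rose 2.61-fold, and VEGFA (-0.74) and KITLG (-0.59) fell. The TGF-beta and BMP pathway had 17 of 33 higher and 5 lower (median 0.19), with the receptor gene TGFBR1 (0.95) highest and BMPR1B lowest. The Wnt pathway had 14 of 32 higher and 5 lower (median 0.15). WNT5A (0.91) and WNT7B (0.87) rose, LEF1 fell (-0.36) and CTNNB1, the transducer beta-catenin, did not pass the test (-0.05, edgeR adjusted p = 0.26).

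Interferon-stimulated genes had 16 of 25 higher and 1, OAS3, lower (median 0.28). UBE2L6, the ISG15-conjugating enzyme, was at 4.19, 3.70 and 4.52 CPM in control and at 12.7, 14.3 and 13.7 CPM with si025 (log2 fold change 1.70 ± 0.11, edgeR adjusted p = 7.8e-12). With every control library below 5 CPM, it passed the floor only through the si025 libraries. HERC6 (0.93), the RNA sensor RIG-I encoded by DDX58 (0.83), STAT2 (0.67) and IRF9 (0.58) rose as well. OAS3 was at 94.6, 104 and 98.8 CPM in control and fell to between 64.4 and 69.8 CPM. Cytokine and NF-kB target genes had 10 of 20 higher and 3 lower (median 0.23, or 0.13 with length and GC offsets). The chemokine gene CXCL10 (1.58), the cytokine signalling inhibitor SOCS2 (1.55) and the adhesion gene ICAM1 (1.24) rose from low levels, whereas NFKB1 fell slightly (-0.16). RELA did not pass the test (-0.10, edgeR adjusted p = 0.067). It was called lower under several alternatives, among them length and GC offsets (-0.18, adjusted p = 3.9e-05) and RLE scaling (-0.12, adjusted p = 0.037). With upper-quartile scaling it was not called (-0.08, adjusted p = 0.16).

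In the cytoskeleton, actin and myosin genes had 28 of 56 higher and 10 lower (median 0.16). ARPC1B (0.86), FHOD3 (0.78) and the vesicle motor MYO5A (0.74) rose, and ACTB fell from between 892 and 952 CPM to between 651 and 679 CPM. Cilium and intraflagellar transport genes had 34 of 60 lower and 6 higher (median -0.20). RPGRIP1L, of the ciliary transition zone, was at 28.1, 25.9 and 28.9 CPM in control and at 15.3, 11.5 and 13.4 CPM with si025 (log2 fold change -1.07 ± 0.08, edgeR adjusted p = 1.9e-10). The transition zone genes TMEM231 (-0.96) and TMEM67 (-0.93) also fell, and TMEM138 rose (0.57). Kinesins divided, 15 of 35 lower and 13 higher, with the mitotic motor KIF15 lowest (-1.15) and KIF12 (0.99) and KIF13B (0.97) highest.

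Genes were also grouped by the letters that open the symbol alone, and many members of the families so formed, such as NUP, MRPS and TSPAN, are those of lists counted above. Of 128 such families with 10 or more members at 5 CPM, 14 had 70% or more of members called 1 way, 8 lower and 6 higher. The lower ones were SF with 10 of 10 members (SF1 and subunits of SF3A and SF3B), NUP with 17 of 20, RAD with 13 of 16, MCM with 8 of 10, the RNA exosome EXOSC with 8 of 10, the DHX helicases with 10 of 14, MRPS with 19 of 27 and the centrosomal CEP genes with 21 of 30. No MCM, SF, EXOSC or CEP gene was called higher. CEP152, a scaffold of centriole duplication, fell from 33.7, 33.4 and 31.2 CPM to 20.4, 17.1 and 18.5 CPM (log2 fold change -0.82 ± 0.08, edgeR adjusted p = 3.2e-09).

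The higher families were ARHGEF with 15 of 19 members, MYO with 11 of 14, TSPAN with 10 of 13, ST with 10 of 14, IL with 10 of 14 and IRF with 7 of 10. ARHGEF genes encode exchange factors that switch on small GTPases, and ARHGEF10L (0.83) and ARHGEF2 (0.79) rose most, with ARHGEF39 the member that fell (-0.47). In TSPAN, TSPAN1 (1.14), TSPAN9 (1.06) and TSPAN15 (1) rose most. TSPAN8 was called lower (-0.17), but was at 0.03 with length and GC offsets (edgeR adjusted p = 0.60) and lost the call without control replicate 3 (-0.11, adjusted p = 0.11). ST mixes sialyltransferases with unrelated genes such as ST14. In the interleukin family the members measured were receptors, and IL6ST, the shared receptor gp130, was at 73.9, 76.8 and 77.1 CPM in control and at 259, 202 and 251 CPM with si025 (1.64 ± 0.07, adjusted p = 5.0e-15). IL20RA (1.25) and IL4R (1.17) followed. IRF8, an interferon regulatory factor of blood cells, rose from 7.59, 6.31 and 7.38 CPM to 17.0, 13.8 and 15.7 CPM, with leukocyte markers summing to at most 3.40 CPM in every library.

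**Figure D5:**
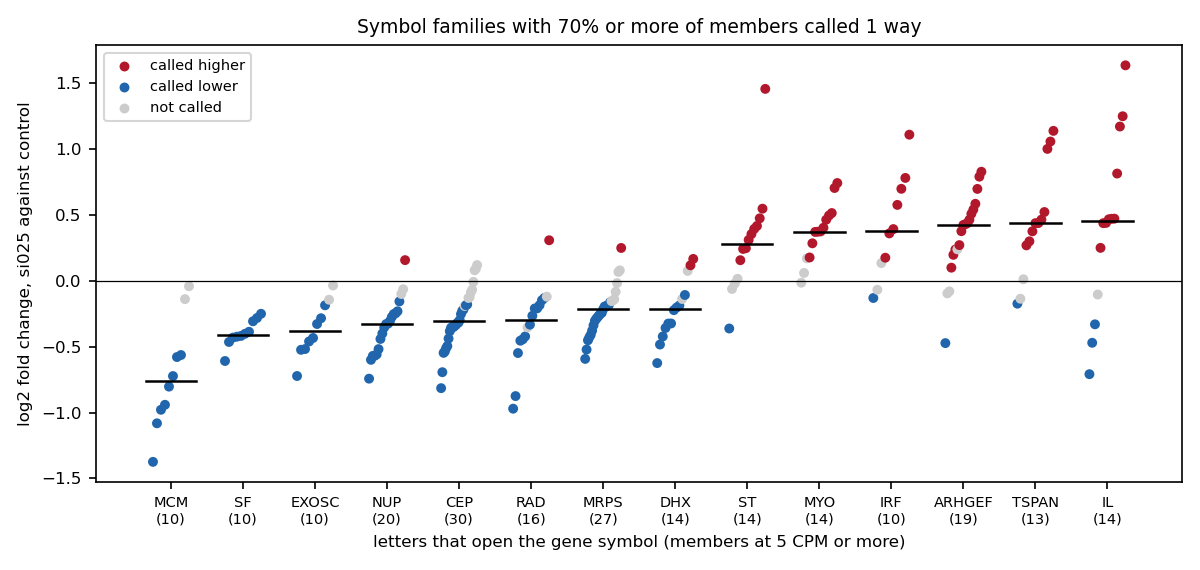
Log2 fold changes (si025 against control) of the members at 5 CPM or more of the 14 symbol families with at least 70% of members called 1 way; red, called higher, blue, called lower, grey, not called, bar, median. The 8 families on the left have medians between -0.76 and -0.21 and the 6 on the right between 0.28 and 0.45.

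Of 404 ZNF genes, 110 were called higher and 82 lower (median 0.02), shares of 27.2% and 20.3% that lie below those of all genes. Solute carriers had 83 of 188 higher and 54 lower (median 0.10), with the zinc transporter gene SLC30A4 rising from 90.8, 92.6 and 96.0 CPM to 281, 261 and 283 CPM and the cystine transporter gene SLC7A11 falling by 1.02 on the log2 scale. Nuclear receptors had 8 of 26 higher and 7 lower, a split that turned under 3 alternatives.

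The response was also set against that to si033, the other siRNA, in the contrast of both siRNA groups without control libraries. Of the genes at 5 CPM or more, 6677 (63.7%) were called different between them. RPL9 was at 600, 634 and 536 CPM with si033, far above the si025 libraries (log2 difference, si025 minus si033, -3.24 ± 0.07, edgeR adjusted p = 1.3e-20). SPDEF was at 55.8, 60.4 and 63.4 CPM with si033, below both other groups (2.09 ± 0.05, adjusted p = 4.7e-19). KLK3 and HMGCS1 lay between control and si025, KLK3 at 21.3, 17.6 and 19.2 CPM and HMGCS1 at 377, 402 and 389 CPM.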

How the data were processed

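Total RNA of VCaP cells was made into stranded libraries and sequenced, and the authors deposited 1 table of raw counts per gene for each of 9 libraries. The submitters' processing notes name HISAT2 2.1.0, featureCounts 1.5.2 and hg38, and the strand setting of the counting is not given in the sources used here. The methods name a GENCODE annotation whereas the header of the deposited count tables names RefSeq, and the RNA extraction kit differs between the labels and the methods. Groups were taken from the sample titles.

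The counts were fitted in R 4.3.3 with edgeR 4.0.16: TMM scaling, filterByExpr, glmQLFit on all 9 libraries with 3 group means, and glmQLFTest with Benjamini-Hochberg adjustment over the 12810 genes tested. CPM are TMM-scaled. The pipeline was tested on simulated counts. Replicates of a group differed by more than sampling noise (chi-square per degree of freedom 1.68 to 5.05), so no library was counted as a duplicate. Members and gene lists were chosen with earlier results of these data known. The genes named were the 15 largest rises and 15 largest falls without overlap between groups, up to 3 called genes per direction of each list, and regulators or rate-limiting enzymes. Members of symbol families, and a few other list members, were named after their values were seen. Alternatives were RLE and upper-quartile scaling, offsets for exonic length and GC content (mgcv 1.9.3; GC known for 94.6% of genes), DESeq2 1.42.0, no filter, the 6 libraries alone, CPM floors of 1 and 10, a replicate block and leaving out each library. A few genes, among them 1 of the 15 largest falls, are not reported here. Seed sites came from the siRNA oligonucleotides listed by the study and GENCODE 44 transcripts on hg38.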

Additional observations from a re-analysis of the deposited data

Results flagged for a closer look

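The largest responses to si025 were compared directly with those to si033, the second siRNA against the same transcript, in the same edgeR fit. Of the 29 genes described for size, 28 differed between the siRNAs at an adjusted p under 0.05, beside 63.7% of all genes at 5 CPM or more. These genes were chosen for extreme values in the si025 libraries, which enter both contrasts, so a difference in the direction of the choice carries no independent weight. Values are log2 differences, si025 minus si033.

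Among the genes that rose, the difference was 4.11 for VTN, 3.43 for CLSTN2, 2.96 for CREB3L1, 2.89 for PRPH, 2.87 for PTGS1, 2.75 for FMOD, 2.62 for UBASH3B and 2.57 for SLC2A10. It was 1.90 for DGKA, 1.84 for ABCC3, 1.69 for FAM69A, 1.57 for CRYM, 1.03 for RNF152, 0.93 for EGFR and 0.22 for QPCT. The mean level of VTN with si033 was 1.54 CPM, below that of each control library.

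Among the genes that fell, the difference was -3.49 for OPRK1, -3.24 for RPL9, -1.85 for ATPAF1, -1.76 for KLHL2, -1.64 for PPFIA1, -1.54 for HIST1H3H and -1.50 for MEST. It was -1.37 for WDHD1, -1.02 for HIST1H2BK, -0.99 for PTMA, -0.70 for ADAM7, -0.69 for CDCA4 and -0.53 for HIST1H2BJ. FBN1 did not pass the test (0.22, edgeR adjusted p = 0.12). Groups of 3 are too small for a test of single outlying libraries.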

How the results depend on the processing

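The share of genes called depended little on the settings tried, but the near-even split at 5 CPM did. Against 3371 higher and 3395 lower, upper-quartile scaling gave 3583 and 3175, length and GC offsets 3826 and 3706, and a floor of 1 CPM 4050 and 3629, so that rises outnumbered falls. RLE scaling gave 3240 and 3587, DESeq2 3026 and 3368. Leaving out each library in turn gave 3051 to 3311 higher and 3121 to 3308 lower, with rises ahead without si025 replicate 2 (3311 and 3308) or si025 replicate 3 (3129 and 3121). The cause of these turns was not tested. With length and GC offsets 57 called genes changed sign. RLE and upper-quartile scaling shift all genes nearly alike (median shift -0.0149 and 0.0215), so they could hardly turn a called gene.

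For the lists, length and GC offsets turned cytosolic ribosomal proteins (20 lower, 37 higher) and complex I (12 lower, 16 higher). These offsets moved list medians by over 1.5 times in other lists too, from -0.20 to -0.12 for mitochondrial ribosomal proteins, -0.18 to -0.11 for translation factors, -0.19 to -0.08 for the proteasome, -0.11 to -0.04 for kinesins, 0.23 to 0.13 for NF-kB targets, 0.24 to 0.14 for semaphorins, 0.15 to 0.10 for the Wnt pathway, 0.12 to 0.19 for the V-ATPase and 0.04 to 0.13 for unfolded protein response regulators. Medians near 0, of ZNF genes and nuclear receptors, also moved by that much. Leaving out each library gave 21 to 43 ribosomal protein genes lower. Nuclear receptors had 7 called higher with those offsets, 7 with the 6 libraries alone and 6 at 10 CPM, each fewer than were called lower. Other floors test other numbers of genes: histones called lower numbered 22 at 1 CPM and 3 at 10 CPM, cadherins called higher 20 and 6, interferon-stimulated genes called higher 9 at 10 CPM, and G protein-coupled receptors called higher 34 at 1 CPM.

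With replicate number as a block, 3407 genes were higher and 3457 lower, and 6743 of 6766 calls were kept. Same-numbered si025 and control libraries deviated together only weakly (r = 0.019, 0.022 and 0.073), below 0.1, so the numbers were not treated as pairs. Each si025 library correlated best with its own number, a hint from the data and not the design.

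Of 2572 values for 198 genes mentioned, 2542 kept their direction and side of the threshold, 16 lost the call, 8 gained one and 6 changed sign, in 14 genes in all. With length and GC offsets the sign turned for EIF4E (0.027), IGF1R (-0.0776), SREBF1 (-0.0849) and TSPAN8 (0.0268), and IGF1R and SREBF1 were then called lower. ATF4, HSF1 and RELA gained a call with these offsets. RELA also gained one with RLE scaling, the 6 libraries alone and DESeq2, and without si025 replicate 2 or control replicate 3. Leaving out each library gave -0.024 to 0.0753 for IGF1R, negative without si025 replicate 1, and -0.23 to 3.3 for YWHAE, negative without si025 replicate 2. FASN, PHGDH, NOP58, NFKB1 and ST14 lost the call under 1 or more alternatives. Depth limits genes near 5 CPM most, and the spread covers these libraries only.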

Other observations

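Beside U2AF1, the gene YWHAE, a 14-3-3 protein, was called higher on the strength of 1 library. It was at 2.26, 43.1 and 1.99 CPM with si025 and at 2.62, 2.03 and 2.67 CPM in control. Without si025 replicate 2 its log2 fold change went from 2.72 (edgeR adjusted p = 0.0026) to -0.23 (adjusted p = 0.39). The gene was named after its values were seen.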
